A study of Mus musculus with 8 samples.

Results

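Dll1+ tumor cells were compared with Dll1- tumor cells of the same animals in PyMT-Dll1 mCherry mice. These mice gave 4 of the 8 RNA-seq libraries of the series, from 2 of its 4 mice. The 4 libraries were chosen by their labels as the mCherry-positive (Dll1+) and mCherry-negative (Dll1-) cells of each mouse, and they are paired by the mouse number (mCherry mouse 1 and mCherry mouse 2 below). Both mice carried a bacterial artificial chromosome (BAC) transgene in which mCherry reports Dll1, together with MMTV-PyMT, a transgene that drives the polyoma middle T oncogene in the mammary epithelium and gives luminal-like tumors. All 4 libraries share both transgenes, the C57BL/6 background and a sort that removed lineage-positive cells (CD45, CD31 and Ter119), so each Dll1- library is the control of the Dll1+ library of its own mouse. Ages were not given in the sources used here. The other 4 libraries came from 2 PyMT-Dll1 GFP mice, in which GFP is knocked in at Dll1. They entered the model for the estimate of the spread and are described only where the reporters differed.

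Dll1 is a membrane-bound ligand of Notch receptors. When it engages a receptor on a neighbouring cell, the receptor is cut and its intracellular domain moves to the nucleus, where it joins Rbpj and induces target genes such as the Hes and Hey repressors. The mammary epithelium has an outer basal, or myoepithelial, layer marked by Krt5, Krt14 and Trp63, and an inner luminal layer that holds Kit-positive progenitors and hormone-sensing cells with estrogen and progesterone receptors. The comparison asks how the tumor cells that express the ligand differ from those that do not.

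Total estimated counts were 123907626 and 31183156 in the Dll1- libraries and 66979980 and 59160572 in the Dll1+ libraries of mCherry mice 1 and 2. Levels are given as CPM, counts scaled to the size of each library with TMM normalization, and 3 counts correspond to 0.0246 to 0.0994 CPM in these libraries, a floor that covers counting error only. The Dll1- library of mCherry mouse 2 stood apart, with fibroblast and matrix genes summing to 39397 CPM against 14812, 6860 and 6694 CPM in the other 3. In bulk libraries of this kind, fewer cells of a type and less RNA per cell cannot be told apart.

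Dll1 itself (chr17:15367354-15376872, minus strand, GRCm38), which checks the sort, was at 35.6 CPM in the Dll1- and 204 CPM in the Dll1+ cells of mCherry mouse 1. In mCherry mouse 2 it was at 50.5 and 245 CPM. Both Dll1+ libraries therefore lay above both Dll1- libraries, and the fitted difference was 5.28-fold (log2 fold change 2.40 ± 0.10 SE, n = 2 mice, edgeR quasi-likelihood test, adjusted p = 0.00245). The Dll1- libraries thus still held Dll1 transcripts, well above the floor in both mice. Which of the sorted cells these came from was not tested.

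At an adjusted p under 0.05, 886 of the 19843 genes tested were higher (4.47%) and 1344 were lower (6.77%) in Dll1+ cells. Of these 2230, 2220 changed in the same direction in both mice, which a paired test on the same 2 mice favors. The changes downward were the larger ones. Of the genes called lower, 741 had at least a 2-fold and 233 at least a 4-fold change, against 161 and 29 of those called higher. Without any test, and among the 14917 genes whose mean reached 1 CPM, 116 were at least 2-fold higher in each of the 2 mice (0.778%) and 623 were at least 2-fold lower (4.18%). The log2 differences of the 2 mice had a Pearson correlation of 0.58 across all tested genes (which are not independent of each other), and 73.1% had the same sign.

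These calls rest on a spread shared by all 4 mice and on the pairing of the libraries. With the 4 mCherry libraries fitted alone, 0 of 19945 genes passed, while 5512 had an unadjusted p under 0.05 and Dll1 had an adjusted p of 0.0591. In the 8-library model without the mouse as a replicate block, 40 genes were higher and 163 lower. In that last model, of the gene lists described below, 18 G2/M, 10 S phase, 7 pericyte, 7 macrophage, 4 fibroblast and 1 cholesterol gene were called lower, 1 basal gene higher, and 1 Notch gene in each direction. The calls of the other lists (luminal, hormone-sensing, milk, quiescence, NF-kB, immediate-early, interferon, glycolysis, endothelial, adipocyte and erythroid) were 0. With the block kept and mCherry mouse 1 left out the counts were 410 and 1037, and without mCherry mouse 2 they were 336 and 550.

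**Figure D1:**
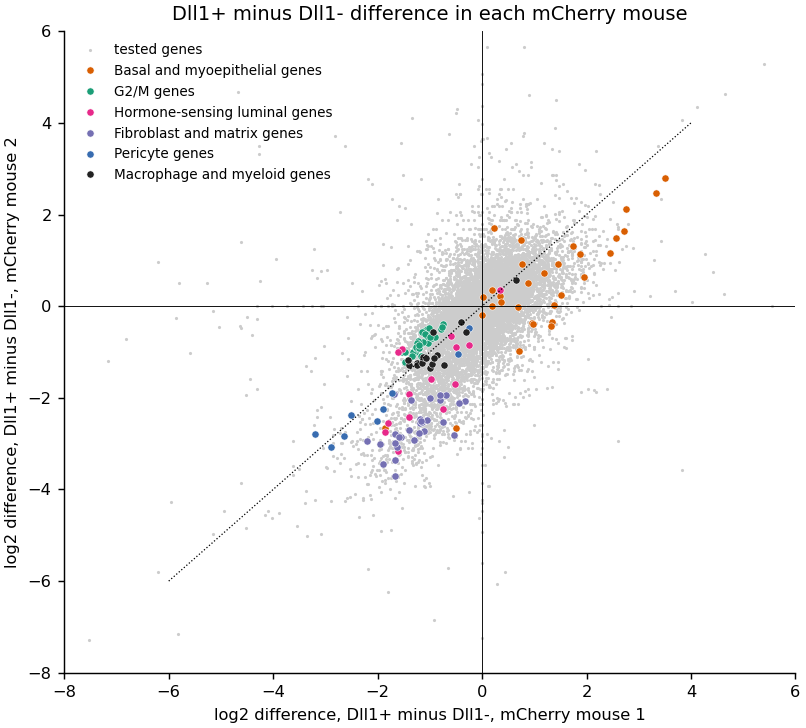
Log2 difference in expression (Dll1+ minus Dll1-) of each tested gene in mCherry mouse 1 (x axis) and mCherry mouse 2 (y axis), with gene lists colored and a dotted line of equal differences. Of the marked lists, G2/M and pericyte genes lie in the lower left in both mice, most fibroblast genes lie below the dotted line, and 6 tested genes lie outside the axis limits of -8 and 6.

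The 2 genes that rose most by the naming rule were a basal keratin and a hemidesmosome gene. That rule took called genes that moved alike in both mice and had a mean of at least 1 CPM. Genes with Gm or Rik names were left out. Krt5, the type II keratin of basal cells, went from 21.4 to 243 CPM in mCherry mouse 1 and from 30.8 to 214 CPM in mCherry mouse 2 (log2 fold change 3.16 ± 0.20 SE, adjusted p = 0.00642). Col17a1, a transmembrane collagen of hemidesmosomes, went from 8.18 to 82.8 CPM and from 8.68 to 47.9 CPM (log2 fold change 2.93 ± 0.28 SE, adjusted p = 0.0128). For both genes the Dll1+ libraries lay far above the Dll1- libraries, with no overlap. Here and below, such statements only describe the levels of named genes. The share of all tested genes without overlap was not counted. Krt14, the partner keratin of Krt5, went from 37.4 to 247 CPM and from 150 to 469 CPM (log2 fold change 2.18, adjusted p = 0.037), and this call was lost without GFP mouse 1 (adjusted p = 0.0983), without GFP mouse 2 (0.0942) and with no filter on low counts (0.0857). Trp63, the transcription factor that maintains the basal layer, went from 8.13 to 27.3 CPM and from 12.6 to 31.4 CPM (log2 fold change 1.54, adjusted p = 0.00852).

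Of the 31 basal and myoepithelial genes tested, 10 were higher and 1 was lower in Dll1+ cells, and the median log2 fold change was 0.74 against -0.01 over all genes tested. The share called higher was 32.3%, against 4.47% of all genes. The members differed by role. Keratins had the largest median (2.02), with 3 of 5 higher, and 3 of the 9 adhesion genes were higher, among them Col17a1 and the laminin chain gene Lamb3 (log2 fold change 0.95, adjusted p = 0.0445). Of the 6 contractile genes, Cnn1 (1.54, adjusted p = 0.0107) and Oxtr, the oxytocin receptor (1.21, adjusted p = 0.0168), were higher.

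The contractile genes Acta2 and Mylk moved in opposite directions in the 2 mice. Cnn1 did not, with log2 fold changes of 1.18 without mCherry mouse 1 and 1.91 without mCherry mouse 2. Acta2, smooth muscle actin, was at 195 CPM in Dll1- and 497 CPM in Dll1+ cells of mCherry mouse 1, but at 214 and 168 CPM in mCherry mouse 2. Mylk, myosin light chain kinase, was at 54.0 and 88.1 CPM in the first mouse and at 48.9 and 24.9 CPM in the second. Neither gene passed the test, and Mylk passed in opposite directions with 1 mouse left out, as lower without mCherry mouse 1 (log2 fold change -0.95, adjusted p = 0.0194) and as higher without mCherry mouse 2 (0.74, adjusted p = 0.0485). The median over the basal list was 0.97 in mCherry mouse 1 and 0.35 in mCherry mouse 2. Procr, a surface marker of a mammary stem cell population that endothelial cells also express, was the 1 member called lower, from 7.18 to 1.96 CPM and from 17.3 to 2.71 CPM (log2 fold change -2.28, adjusted p = 0.00852).

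**Figure D2:**
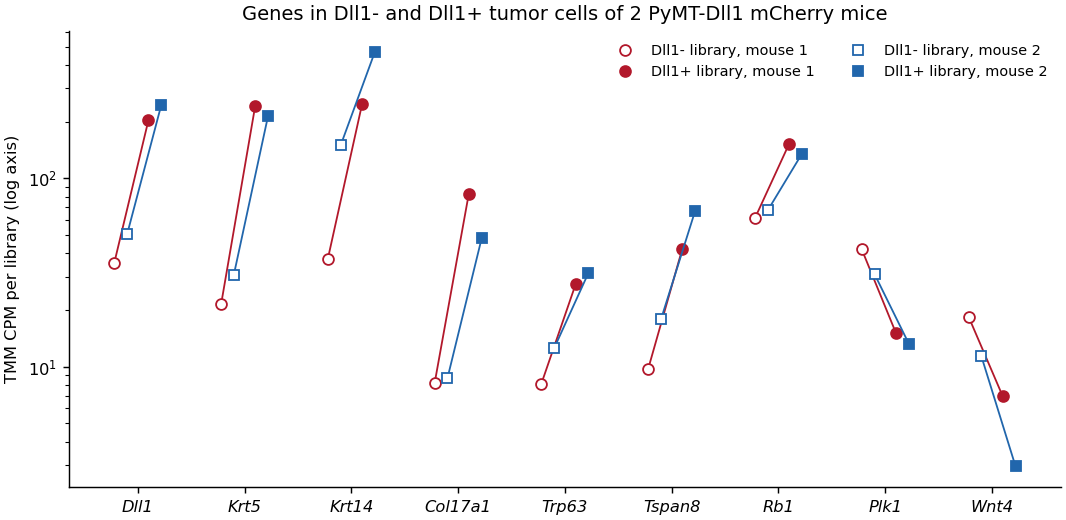
TMM-normalized CPM (log axis) of 9 genes in each mCherry library, with lines joining the Dll1- (open) and Dll1+ (filled) library of mCherry mouse 1 (red circles) and mCherry mouse 2 (blue squares). Dll1, Krt5, Krt14, Col17a1, Trp63, Tspan8 and Rb1 were higher and Plk1 and Wnt4 lower in the Dll1+ library of both mice, with Krt5 moving from 21.4 to 243 CPM in mouse 1.

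Luminal progenitor genes were also higher, while hormone-sensing genes were lower. Of 14 progenitor genes tested, 7 were higher (50%) and 1 was lower (7.14%), against 4.47% and 6.77% of all genes. The median log2 fold change was 0.64. Tspan8, a tetraspanin, went from 9.74 to 42.3 CPM and from 17.9 to 67.2 CPM (log2 fold change 2.02 ± 0.12 SE, adjusted p = 0.00476). Kit, the receptor tyrosine kinase that marks these progenitors, went from 92.1 to 172 CPM and from 138 to 229 CPM (log2 fold change 0.82, adjusted p = 0.0101). For both genes the 2 Dll1+ libraries lay above the 2 Dll1- libraries, and Aldh1a3, a retinoic acid synthesizing enzyme (0.67), and Cd14 (0.61), which macrophages also express, rose as well. Prom1, a member of both luminal lists, fell (log2 fold change -0.63, adjusted p = 0.00852).

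Of the 14 hormone-sensing genes tested, 1 was higher (7.14%) and 7 were lower (50%), against 4.47% and 6.77% of all genes. The median log2 fold change was -1.31. Wnt4, a ligand induced by progesterone, went from 18.4 to 6.97 CPM and from 11.4 to 2.96 CPM (log2 fold change -1.66 ± 0.19 SE, adjusted p = 0.00852). Foxa1, the cofactor of the estrogen receptor, went from 8.75 to 2.98 CPM and from 12.6 to 6.57 CPM (log2 fold change -1.24, adjusted p = 0.0146). The Dll1+ libraries lay below the Dll1- libraries for both genes. Cited1 (-2.29, adjusted p = 0.0154) and the epidermal growth factor family ligand Areg (-1.31, adjusted p = 0.0235) fell as well, whereas Gata3 was higher (0.34, adjusted p = 0.0393), a call that did not hold without any single one of the 4 mice (adjusted p between 0.075 and 0.167).

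The general epithelial markers changed little by comparison. Epcam was at 986 and 1211 CPM in the Dll1- and Dll1+ cells of mCherry mouse 1 and at 901 and 1214 CPM in mCherry mouse 2, and its adjusted p of 0.0822 did not pass. Krt8 and Krt18, the luminal keratins, had log2 fold changes of 0.31 and 0.40 and did not pass either (adjusted p = 0.158 and 0.106). Of the 12 epithelial genes, 3 were higher, among them the mucin Muc1 (0.65, adjusted p = 0.0107), and that count was 1 without mCherry mouse 2 or either GFP mouse and 6 with DESeq2. In the reported model, 25% of the epithelial genes were higher, against 4.47% of all genes. Of 12 milk protein genes, Csn3 (0.70, adjusted p = 0.0393) and Muc15 (0.83, adjusted p = 0.0377) were higher and Wap was lower (-0.69, adjusted p = 0.0161). The milk shares were 16.7% higher and 8.33% lower, against 4.47% and 6.77% of all genes. The Csn3 call did not hold without any single one of the 4 mice (adjusted p between 0.0574 and 0.158), the Muc15 call was lost without mCherry mouse 1 (0.117) and the Wap call without mCherry mouse 2 (0.0717).

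In the Notch pathway, 5 of 37 tested genes were higher (13.5%) and 4 were lower (10.8%). Over all genes the shares were 4.47% and 6.77%, and the Notch median log2 fold change was -0.0029. The counts were 3 and 5 without mCherry mouse 1 and 3 and 1 without mCherry mouse 2. Among the ligands Dll1 was higher, and Dll4, Jag1 and Jag2 did not pass. Jag2, which is also on the basal list, went from 12.8 to 36.8 CPM in mCherry mouse 1 and from 18.0 to 21.3 CPM in mCherry mouse 2 (adjusted p = 0.314). Of the receptors, Notch1 did not pass (log2 fold change 0.30, adjusted p = 0.121) and Notch3 was lower by a small amount (-0.36, adjusted p = 0.0468). The Notch3 call was lost under RLE size factors (adjusted p = 0.06), and without any single mouse, up to 0.407 without mCherry mouse 2.

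The target genes split. Hey1 went from 131 to 204 CPM and from 66.1 to 120 CPM (log2 fold change 0.75 ± 0.09 SE, adjusted p = 0.0101), and Hes1 went from 80.6 to 113 CPM and from 90.2 to 126 CPM (0.48, adjusted p = 0.0184). Sox9, a transcription factor of progenitor cells that Notch can induce, went from 161 to 246 CPM and from 197 to 320 CPM (0.65, adjusted p = 0.0107). These 3 were higher in both mice, with overlapping groups for Hey1 and separate groups for Hes1 and Sox9, although the Hes1 call was lost without mCherry mouse 1 (adjusted p = 0.0558) or mouse 2 (0.071). Heyl, a target that is prominent in vascular smooth muscle and pericytes, fell from 23.2 to 6.17 CPM and from 33.4 to 5.81 CPM (-2.21 ± 0.20 SE, adjusted p = 0.00642). The non-canonical ligand Dlk1 was also lower (-2.73, adjusted p = 0.0182), but not without mCherry mouse 1 (adjusted p = 0.0719) or mouse 2 (0.132). Rbpj, the DNA-binding partner of the receptors, was at 45.9 and 45.5 CPM in the first mouse and at 63.8 and 64.0 CPM in the second.

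Cell-cycle genes were lower in Dll1+ cells. Of 37 G2/M genes tested, 35 were lower and 0 higher (94.6% against 6.77% of all genes), all 37 were lower in each mouse, and the log2 fold changes ran from -1.35 to -0.57. Plk1, the mitotic kinase, went from 41.9 to 15.1 CPM and from 31.0 to 13.3 CPM (log2 fold change -1.35 ± 0.11 SE, adjusted p = 0.00591). Ccnb2, a mitotic cyclin, went from 61.7 to 24.3 CPM and from 43.0 to 20.2 CPM (-1.22, adjusted p = 0.00591). Both Dll1+ libraries lay below both Dll1- libraries for each gene. Mki67, the proliferation marker, went from 207 to 89.7 CPM and from 153 to 84.5 CPM (-1.03, adjusted p = 0.00731).

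Of 36 S phase genes, 29 were lower and 0 higher (80.6%), with a median log2 fold change of -0.81. Rrm2, the regulated subunit of ribonucleotide reductase, went from 107 to 36.8 CPM and from 76.7 to 30.1 CPM (-1.44 ± 0.09 SE, adjusted p = 0.00476). All 7 Mcm genes, which encode the replicative helicase and the replication factor Mcm10, were lower, with a median of -1.02. The medians over both lists were larger in mCherry mouse 1 (-1.16 for G2/M and -1.01 for S phase) than in mCherry mouse 2 (-0.79 and -0.60). Without mCherry mouse 1, 22 G2/M and 11 S phase genes passed as lower, and without the mouse as a block 18 and 10 did.

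The promoters of the G2/M genes shared letters that the lists did not use, and 4 promoters are shown because they set the letters of 3 G2/M genes beside those of an S phase gene. Cdk1 was added after its promoter was seen. Windows of 250 bases before to 50 after the RefSeq start (GRCm38.p6) were searched on both strands for TTTGAA, the core of the cell-cycle homology region (CHR), for CCAAT, and for TTTGGCG or TTTCCCG, forms of the E2F site. No motif contains another, though their ends may overlap. The windows are chr7:122159185-122159484 (plus strand) for Plk1, chr9:70421505-70421804 (minus strand) for Ccnb2, chr10:69352863-69353162 (minus strand) for Cdk1 and chr1:128359656-128359955 (minus strand) for Mcm6. Each is written 5′ to 3′ on the strand of its gene, with CHR cores and CCAAT boxes in capitals in the first 3 and E2F sites in capitals in Mcm6. A CCAAT box on the other strand reads ATTGG, and any in Mcm6 are left in lower case.
Plk1: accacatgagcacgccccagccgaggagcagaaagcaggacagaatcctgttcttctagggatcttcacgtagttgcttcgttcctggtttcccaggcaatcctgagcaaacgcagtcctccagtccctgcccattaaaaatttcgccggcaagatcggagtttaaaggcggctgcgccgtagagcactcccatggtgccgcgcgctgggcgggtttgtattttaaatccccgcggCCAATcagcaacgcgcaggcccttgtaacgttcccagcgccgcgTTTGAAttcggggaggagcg
Ccnb2: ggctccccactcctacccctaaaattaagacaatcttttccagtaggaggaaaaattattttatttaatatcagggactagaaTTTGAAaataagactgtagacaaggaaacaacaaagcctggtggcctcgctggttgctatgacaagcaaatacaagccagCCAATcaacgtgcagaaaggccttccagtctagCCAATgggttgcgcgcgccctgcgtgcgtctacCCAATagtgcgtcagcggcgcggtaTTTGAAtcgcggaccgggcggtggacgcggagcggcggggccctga
Cdk1: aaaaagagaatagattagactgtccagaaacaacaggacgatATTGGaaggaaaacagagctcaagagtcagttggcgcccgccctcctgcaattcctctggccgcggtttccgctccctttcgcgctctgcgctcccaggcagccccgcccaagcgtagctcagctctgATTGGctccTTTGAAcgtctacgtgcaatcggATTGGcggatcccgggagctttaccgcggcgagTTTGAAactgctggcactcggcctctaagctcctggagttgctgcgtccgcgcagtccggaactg
Mcm6: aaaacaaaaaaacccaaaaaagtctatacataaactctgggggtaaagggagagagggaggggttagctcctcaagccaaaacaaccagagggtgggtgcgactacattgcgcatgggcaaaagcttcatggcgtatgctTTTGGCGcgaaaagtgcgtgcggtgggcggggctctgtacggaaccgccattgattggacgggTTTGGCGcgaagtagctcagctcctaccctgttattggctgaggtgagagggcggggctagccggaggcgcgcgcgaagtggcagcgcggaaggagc
TTTGAA was found in the promoters of 24 of the 31 G2/M genes with an entry (77.4%), against 15.2% of the 12693 tested genes with one. CCAAT was in 77.4% against 42.3%, and both motifs together were in 20 (64.5%) against 6.22%. In the S phase promoters TTTGAA was in 10.7% and CCAAT in 64.3%, and the E2F forms were in 10 of 28 (35.7%), against 6.45% of the G2/M genes and 8.52% of all tested genes. A match describes the letters in the window and does not show a bound site.

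Genes that restrain the cycle moved in part the other way. Of 19 inhibitor and quiescence genes, 7 were higher (36.8%) and 2 lower (10.5%), against 4.47% and 6.77% of all genes. Rb1, the retinoblastoma protein that holds E2F factors, went from 61.5 to 152 CPM and from 67.6 to 135 CPM (log2 fold change 1.16 ± 0.10 SE, adjusted p = 0.00591). Tob1, an antiproliferative factor, went from 135 to 253 CPM and from 170 to 322 CPM (0.91, adjusted p = 0.00669). Both were higher in the 2 Dll1+ libraries than in either Dll1- library. Cdkn1b (p27) was higher by 0.42 (adjusted p = 0.0187), not held without mCherry mouse 1 (0.0593) or mouse 2 (0.0899), and Cdkn2c (p18) was lower by a log2 fold change of -0.61 (adjusted p = 0.0313), not held without any single mouse (adjusted p between 0.0521 and 0.201). Without either mCherry mouse the counts were 2 higher, Rb1 and Tob1, and 0 lower.

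Cholesterol synthesis genes were lower as well. All 22 had negative log2 fold changes, and 10 of them passed (45.5%), with a median of -0.41. Idi1, an isomerase of the isoprenoid steps, went from 70.5 to 34.7 CPM and from 52.1 to 27.6 CPM (-0.97 ± 0.08 SE, adjusted p = 0.00591). Fdps, the enzyme that makes farnesyl pyrophosphate, went from 159 to 85.1 CPM and from 102 to 58.3 CPM (-0.85, adjusted p = 0.00731), and the groups did not overlap for either gene. Without mCherry mouse 1 the count was 4 and without mCherry mouse 2 it was 6. Glycolysis genes gave 3 higher (17.6%) and 1 lower (5.88%) of 17, against 4.47% and 6.77% of all genes. The aldolase gene Aldoa (ENSMUSG00000030695.16) was at 0.57 (adjusted p = 0.0297) and Hk2, a hexokinase, at -0.66 (adjusted p = 0.0159). The Aldoa call was lost without any single mouse (adjusted p between 0.0555 and 0.109) and the Hk2 call without mCherry mouse 2 (0.0954). Without either GFP mouse 0 glycolysis genes were higher, and without mCherry mouse 2 none passed in either direction.

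Of 36 NF-kB target genes, 7 were higher (19.4%) and 4 lower (11.1%), against 4.47% and 6.77% of all genes. The median log2 fold change was 0.19. Tnf went from 34.1 to 59.3 CPM and from 42.8 to 82.4 CPM (0.87 ± 0.07 SE, adjusted p = 0.00591). Traf1, an adaptor of tumor necrosis factor receptors, went from 14.5 to 41.4 CPM and from 16.9 to 33.5 CPM (1.26, adjusted p = 0.0137). The cytokines did not share a direction. Tnf, Lif (0.85) and Ccl20 (1.16) rose, whereas Il1b (-1.12), Ccl2 (-0.76) and Cxcl10 (-1.01) fell, as did the protease Plau (-0.82). Among the subunits, Relb was higher (0.40, adjusted p = 0.0381), and Nfkb1 was at 97.9 and 103 CPM in mCherry mouse 1 and at 93.5 and 98.8 CPM in mCherry mouse 2. Without mCherry mouse 1 the counts were 6 higher and 7 lower. Without mCherry mouse 2, 3 targets were higher and 2 lower, and the calls of Lif, Ccl20, Il1b, Ccl2 and Cxcl10 were lost (adjusted p between 0.0561 and 0.262).

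Immediate-early genes respond within minutes to growth factors and to tissue handling. Of 27, 9 were higher (33.3%) and 1 was lower (3.7%), against 4.47% and 6.77% of all genes. The median log2 fold change was 0.46. Fos went from 3174 to 5478 CPM and from 3894 to 5635 CPM (0.66, adjusted p = 0.034), and Ier3 went from 281 to 433 CPM and from 531 to 942 CPM (0.72, adjusted p = 0.0169). The groups did not overlap for Fos and overlapped for Ier3, whose levels were higher in mCherry mouse 2. The counts were 3 higher and 1 lower without mCherry mouse 1 or GFP mouse 2, 1 and 0 without mCherry mouse 2 (adjusted p = 0.0705 for Ier3), and 16 and 1 with DESeq2. Of 22 interferon-stimulated genes, 5 were higher (22.7%), led by Ifi44 (0.92, adjusted p = 0.00733) and Irf7 (0.72, adjusted p = 0.00966). The median was 0.40 in mCherry mouse 1 and -0.02 in mCherry mouse 2. The count was 2 without mCherry mouse 1 and 3 without either GFP mouse.

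**Figure D3:**
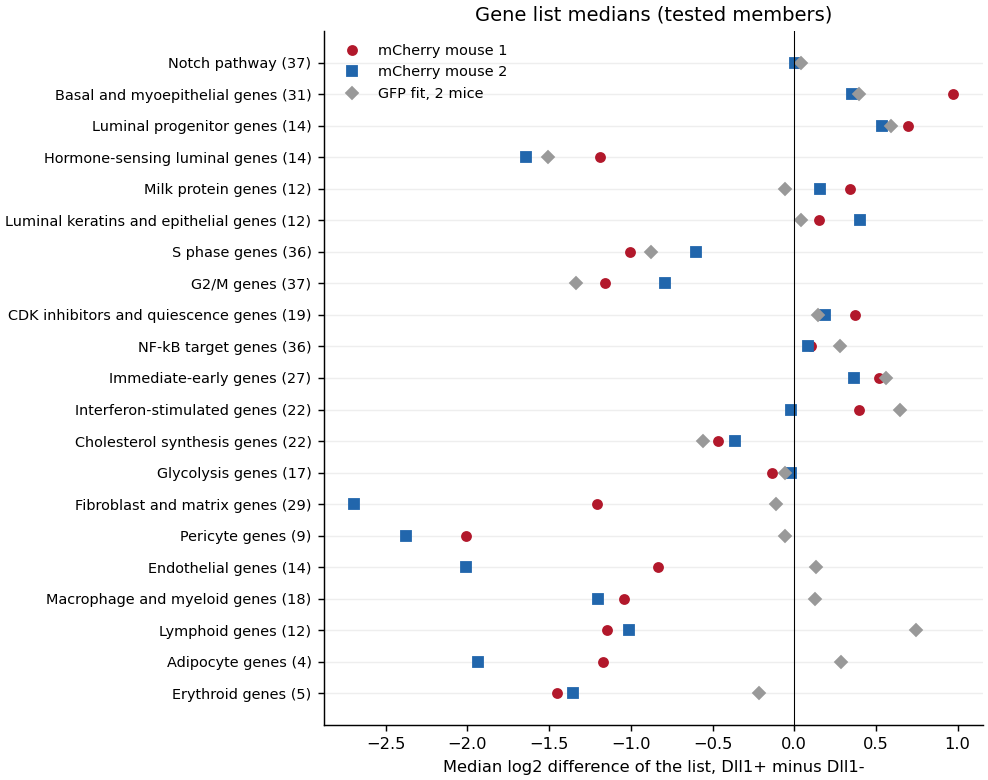
Median log2 difference (Dll1+ minus Dll1-) of the tested members of each gene list, with the number tested in brackets, in mCherry mouse 1, in mCherry mouse 2 and as fitted over the 2 GFP mice. Fibroblast and matrix genes had medians of -1.21 and -2.69 in the mCherry mice against -0.11 in the GFP mice, and G2/M genes had -1.16 and -0.79 against -1.33.

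The most negative list medians were those of pericyte genes and of fibroblast and matrix genes (-1.88). Among 9 pericyte genes, 8 were lower (88.9%), with a median log2 fold change of -2.26. Rgs5, a pericyte regulator of G-protein signaling, went from 256 to 34.5 CPM and from 295 to 34.8 CPM (log2 fold change -2.99 ± 0.13 SE, adjusted p = 0.0031). Abcc9 and Kcnj8, the subunits of the pericyte potassium channel, fell with it (-2.26 and -1.81, adjusted p = 0.00589 and 0.00591). The 2 mice gave similar values for these genes, with no overlap between Dll1+ and Dll1- libraries.

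All 29 tested fibroblast and matrix genes had negative log2 fold changes, from -2.68 to -1.20, and 12 of them passed (41.4%). Pdgfrb, the growth factor receptor of fibroblasts and pericytes, went from 153 to 33.1 CPM and from 234 to 30.2 CPM (-2.58 ± 0.20 SE, adjusted p = 0.00836). Fn1, fibronectin, went from 623 to 243 CPM and from 1828 to 443 CPM (-1.70, adjusted p = 0.0101), and Col1a1, the main chain of collagen I, from 2656 to 1159 CPM and from 6600 to 1189 CPM (-1.83, adjusted p = 0.0393). For each of these 3 genes the Dll1- library of mCherry mouse 2 was the highest, and the groups did not overlap. The count of 12 was unsteady, at 29 without mCherry mouse 1, 22 without mCherry mouse 2, 6 without GFP mouse 1, 3 without GFP mouse 2, 4 without the mouse as a block and 26 with DESeq2.

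Of 18 macrophage and myeloid genes 15 were lower (83.3%) and 1, Cd14, was higher, and the count of lower genes was 9 without mCherry mouse 2 and 7 without the mouse as a block. Lyz2, lysozyme, went from 225 to 95.3 CPM and from 241 to 103 CPM (-1.24 ± 0.07 SE, adjusted p = 0.00476), and Csf1r, the receptor for macrophage colony-stimulating factor, from 51.4 to 22.4 CPM and from 58.6 to 24.4 CPM (-1.23, adjusted p = 0.00589). Of 14 endothelial genes 7 were lower, among them the receptor gene Flt1 (-1.16, adjusted p = 0.0129, 0.0603 without mCherry mouse 2) and the adhesion gene Esam (-1.67, adjusted p = 0.031, 0.0603 and 0.0778 without GFP mouse 1 and 2), and the count was 13 without mCherry mouse 1, 4 without mCherry mouse 2 and 1 without either GFP mouse. The share lower in the reported model was 50% for the endothelial list, against 6.77% of all genes. Of the other lists, 3 of 4 tested adipocyte genes (75%), 4 of 5 erythroid genes (80%) and 0 of 12 lymphoid genes were lower. The count of lymphoid genes lower at an unadjusted p under 0.05 ranged over the alternatives from 0 (with DESeq2 or without mCherry mouse 1) to 9.

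Among the markers used in the sort, 1 of 2 passed as lower in the reported model. Ptprc, which encodes CD45, was at 10.6 and 6.40 CPM in the Dll1- and Dll1+ cells of mCherry mouse 1 and at 12.8 and 5.21 CPM in mCherry mouse 2 (log2 fold change -1.01, adjusted p = 0.0281, lost without mCherry mouse 2 at 0.181). Pecam1, which encodes CD31, was at 43.7 and 24.9 CPM and at 98.5 and 23.6 CPM (-1.43, adjusted p = 0.0872). Its result depended on the setting. Pecam1 passed as lower with no robust moderation (adjusted p = 0.0353) and with DESeq2 (1.8e-05). It did not pass under RLE size factors (0.0881), the other filters (0.0750 to 0.236) or without the mouse as a block (0.0741). The log2 fold change was -2.04 without mCherry mouse 1 and -0.78 without mCherry mouse 2. Both Ptprc and Pecam1 were detected in all 4 libraries.

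Summed over all listed markers, fibroblast and matrix genes were 2.16 times as high in the Dll1- as in the Dll1+ library of mCherry mouse 1 and 5.89 times as high in mCherry mouse 2. The ratios were 2.36 and 3.11 for pericyte, 1.82 and 4.05 for endothelial, 1.65 and 1.54 for macrophage and myeloid, 3.01 and 5.73 for adipocyte, 2.71 and 2.57 for erythroid and 2.46 and 2.17 for lymphoid genes. Each list was thus higher in the Dll1- library of both mice. The luminal keratin and epithelial genes went the other way, at 6466 and 7185 CPM in mCherry mouse 1 and at 7790 and 9996 CPM in mCherry mouse 2. Among these markers, Tcf21, Adipoq and Lep were at 0 in at least 1 mCherry library. The part of these other cell types in the genes called lower, among them the collagens, Heyl, Procr, Dlk1 and Il1b, was not tested.

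**Figure D4:**
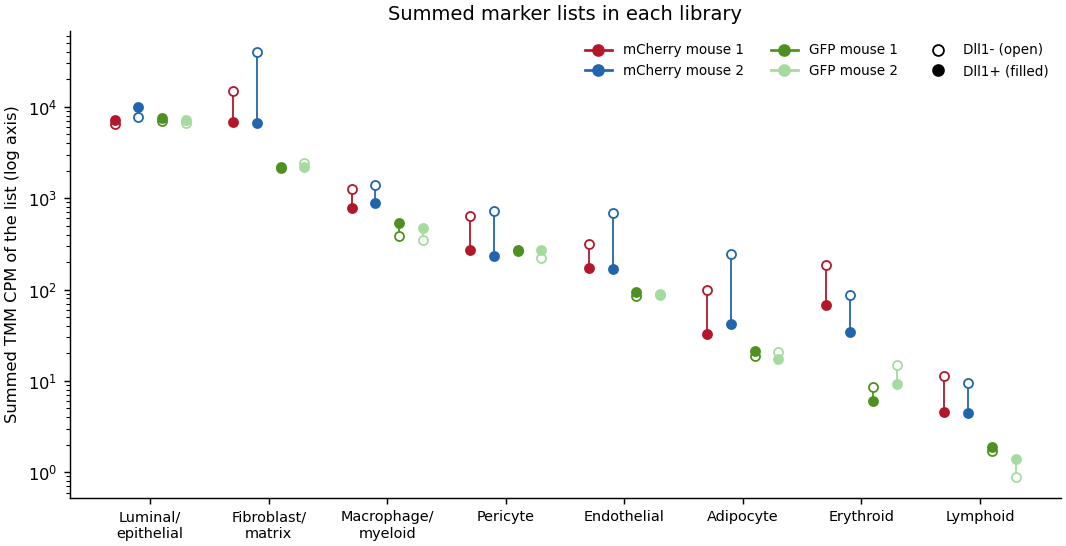
Summed CPM (log axis) of each marker list in all 8 libraries, with a line joining the Dll1- (open) and Dll1+ (filled) library of each mouse. In the mCherry mice every list but the luminal one was higher in the Dll1- library, with fibroblast and matrix genes at 39397 against 6694 CPM in mouse 2, and in the GFP mice the same list ran from 2137 to 2429 CPM.

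Outside the lists, the strongest changes named by the rule were of mixed kinds. Among the higher genes, Sostdc1, a secreted antagonist of BMP and Wnt signals, went from 0.591 to 4.35 CPM and from 0.795 to 2.87 CPM (log2 fold change 2.41, adjusted p = 0.0145), Rgr, an opsin-like receptor, from 0.796 to 4.55 CPM and from 0.762 to 2.96 CPM (2.27, adjusted p = 0.00852), and Cntn2, a neural adhesion protein, from 1.23 to 7.53 CPM and from 1.39 to 4.91 CPM (2.24, adjusted p = 0.0112). These were genes of low level, and Smr2 (2.26) and Luzp2 (2.10) were as well. Without mCherry mouse 1 the calls of Sostdc1, Cntn2 and Smr2 were lost (adjusted p = 0.0924, 0.055 and 0.244).

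Among the lower genes, Scg3, a secretory granule protein, went from 8.83 to 0.825 CPM and from 30.6 to 0.916 CPM (-4.24, adjusted p = 0.0103), and Enpep, an aminopeptidase, from 10.1 to 1.07 CPM and from 20.2 to 1.04 CPM (-3.76, adjusted p = 0.00591). The matrix proteins Efemp1 (-3.45) and Tnxb (-3.36) and the transporter Abca8a (-3.58) fell too, but these calls were lost without either GFP mouse (adjusted p between 0.0528 and 0.208). Nos1, neuronal nitric oxide synthase (-4.21), Cfd, complement factor D (-3.47, adjusted p = 0.0766 without mCherry mouse 2), and Trarg1, a protein of glucose transporter traffic (-3.34), fell as well. The immunoglobulin chain gene Ighg1 fell from 2.41 to 0 CPM and from 2.09 to 0.0705 CPM. Its call was lost with DESeq2 (adjusted p = 0.315) and without mCherry mouse 1 (log2 fold change -4.80, against -6.03 in the reported model). Ighg1 was not tested under the filter of at least 10 counts in every library or the filter on 2 groups. Rab11b-ps2, a pseudogene that may share reads with its parent gene, was at 2.18 and 5.53 CPM in the Dll1- libraries and at 0 in both Dll1+ libraries, at least 78.2-fold lower against a floor of 3 counts per library.

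The same contrast in the GFP mice differed from that in the mCherry mice in 45 of the 19843 genes (0.227%, 2453 at an unadjusted p under 0.05), of which 39 were more negative in the mCherry mice. That count ran from 0 without the mouse as a block and 3 without robust moderation or GFP mouse 2 to 787 without mCherry mouse 1 and 1143 without a filter on low counts. Rgs5 was at 11.9 and 11.2 CPM in the Dll1- and Dll1+ cells of the first GFP mouse and at 7.46 and 9.94 CPM in the second, far below its 256 and 295 CPM in the mCherry Dll1- libraries (difference of log2 fold changes -3.14 ± 0.18 SE, adjusted p = 0.0151). F13a1, a coagulation factor of macrophages, moved in opposite directions, with log2 fold changes of -0.79 in the mCherry and 1.77 in the GFP mice (difference adjusted p = 0.0151), though its fall in the mCherry mice was not called without mCherry mouse 2 (adjusted p = 0.073). The called differences held 3 of the 9 pericyte genes and 6 of the 18 macrophage genes. They held 0 of the 29 fibroblast and matrix genes and 0 of the 14 endothelial genes. The 31 basal, 36 S phase and 37 G2/M genes also gave 0. A count of 0 does not show that the effects were equal.

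**Figure D5:**
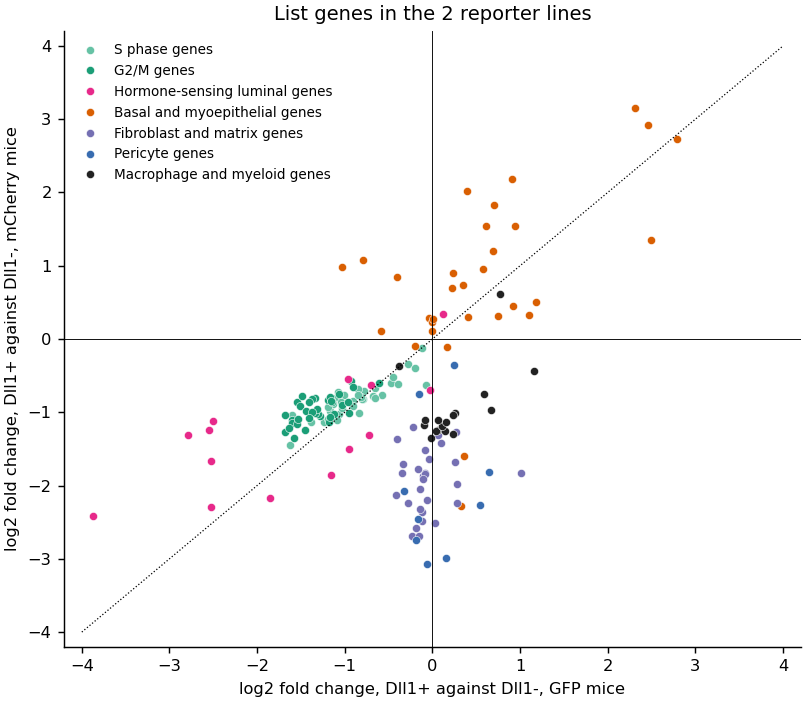
Fitted log2 fold change (Dll1+ against Dll1-) of each tested list gene in the GFP mice (x axis) and the mCherry mice (y axis), with a dotted line of equality. Most pericyte, fibroblast and macrophage genes lie below zero on the mCherry axis and near zero on the GFP axis, as Rgs5 does at -2.99 and 0.16, while Plk1 sits at -1.35 and -1.58.

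Around Dll1, the comparison took in genes that start within 250 kb of it. A930024N18Rik (chr17:15375000-15379475, plus strand), a lincRNA that overlaps the start of Dll1 on the opposite strand, went from 0.664 to 4.23 CPM and from 1.09 to 3.73 CPM (log2 fold change 2.25, adjusted p = 0.0138, 0.0756 without mCherry mouse 1). The library kit is stranded but how the mapping used the strand is not given in the sources used here, so reads of this gene and of Dll1 may not be fully separated. The protein-coding neighbours did not pass. For Fam120b, 19.3 kb away, the log2 fold change was 0.22 (adjusted p = 0.174), for Prdm9 it was 0.28 (adjusted p = 0.276), and Psmb1, Tbp and Pdcd2 had values between -0.05 and 0.10. Both libraries of an mCherry mouse carry the BAC, so this contrast cannot show a gain shared by both. Fam120b was at 219 to 282 CPM in the mCherry and 58.1 to 81.9 CPM in the GFP libraries. Prdm9 went the other way, at 4.17 to 6.81 and 9.30 to 12.2 CPM. The part of the BAC in these levels was not tested.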

How the data were processed

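Sequencing covered sorted Dll1+ and Dll1- tumor cells, lineage-negative, of 4 mice. The estimated counts that the authors deposited came from Salmon with GENCODE mouse transcripts (GRCm38.p6) and tximport, and were whole numbers without normalization for 53697 genes. Symbols and positions came from a GENCODE GRCm38 annotation that matched 53668 of them.

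Genes kept by filterByExpr entered 1 model of all 8 libraries, with the mouse as a block and a Dll1+ effect per reporter, as the study's own model had Dll1 status and mouse as terms. The test was the robust quasi-likelihood test of edgeR 4.0.16 (R 4.3.3) after TMM normalization. P values were adjusted by Benjamini-Hochberg over 19843 genes, with a threshold of 0.05. Log2 differences per mouse used a prior count of 2. Totals ran from 27301396 to 123907626 counts. The pairing comes from the mouse that gave both libraries. The departures of paired libraries from their group means had a correlation across genes of 0.54 for mCherry, and of -0.05 for GFP, where they did not move together. With 2 mice per reporter, p values rest on the spread among the 4 mice.

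Named genes were Dll1, sort and keratin markers, the 10 genes at each end of the log2 fold changes that were called, moved alike in both mCherry mice and averaged 1 CPM or more, up to 4 members of each list in each direction by lowest p, the 5 lowest p of the reporter difference above the same level, and genes within 250 kb of Dll1. Genes with Gm or Rik names were left out of the 10 at each end. Other list members named were chosen after their values were seen. The members and lists were chosen with earlier results of these data known. Simulated counts were used to test the scripts. A few genes are not reported here. Alternatives were RLE size factors, DESeq2 1.42.0, other filters, no block, the mCherry libraries alone, no robust moderation and each mouse left out.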

Additional observations from a re-analysis of the deposited data

Results flagged for a closer look

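The results singled out here are differences between the 2 reporters, tested as the mCherry effect minus the GFP effect in 1 model, with 2 mice per reporter. The count of genes past the threshold was 45. On the log2 scale, the largest was Rab11b-ps2 at -11.10, a value that rests on 0 counts in both mCherry Dll1+ libraries and on a pseudogene. F13a1 differed by -2.56. The pericyte genes Rgs5, Abcc9 and Kcnj8 differed by -3.14, -2.80 and -2.46. Ccdc80, a secreted matrix protein, differed by -1.80. The macrophage genes Lyz2, Csf1r, C1qb and C1qc differed by -1.30, -1.34, -1.30 and -1.30. The summed pericyte markers were 2.36 and 3.11 times as high in the Dll1- as in the Dll1+ libraries of the mCherry mice. In the GFP mice they were 1.02 and 0.83 times as high. The summed macrophage markers were 1.65 and 1.54 times and 0.709 and 0.734 times. A sum gives most weight to its highest members, and this list includes Cd14, which is also on the progenitor list. The median log2 fold change of the macrophage list in the GFP mice was 0.13. The part of these cell types in the differences was not tested.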

How the results depend on the processing

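The counts of genes higher and lower in Dll1+ cells of mCherry mice (886 and 1344) stayed within 1.5 times of these values under RLE size factors, DESeq2, at least 10 counts in every library, no robust moderation and, both chosen after seeing the data, a filter on 2 groups (1009 and 1145) and thinning of the deepest library. They were 1415 and 2222 with no filter on low counts, 40 and 163 in the fit with no replicate block for the pairing by mouse, and 0 and 0 with the mCherry libraries alone, with the replicate block or without it (5512 and 2588 genes at an unadjusted p under 0.05). With 1 mouse left out, the counts ran from 336 to 798 higher and from 550 to 1225 lower. The 45 differences between reporters were 13 under RLE size factors and under the filter on 2 groups, 14 after thinning, 544 with DESeq2, 1143 with no filter, 0 with no replicate block and 3 with no robust moderation, and ran from 3 to 787 with 1 mouse left out. The cause was not tested. At a mean of at least 10 CPM, 38 genes were at least 2-fold higher and 230 lower in both mice.

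Signs under the alternatives were compared for the named genes and the list medians only, not for all tested genes. Among these, sign changes were limited to named genes that did not pass in the reported model and to the medians of 2 lists. Tbp went from -0.01 to 0.0011 under RLE size factors, 0.0014 with DESeq2, 0.018 with at least 10 counts, 0.0013 and 0.0014 with the mCherry libraries alone and 0.019 with the filter on 2 groups. Egr2 went to 0.0037, 0.0049 and 0.0015 with at least 10 counts, the filter on 2 groups and thinning. With no replicate block, in all 8 and in the mCherry libraries alone, Mylk was 0.13 and 0.15, Glycam1 0.076 and 0.087 and Plin4 0.018 and 0.031. With 1 mouse left out, the log2 fold changes that changed sign ran from -1.07 to 0.65 for Glycam1, -0.42 to 0.032 for Cldn4, -0.32 to 0.086 for Krt19, -0.060 to 0.019 for Psmb1, -0.16 to 0.027 for Plec, -0.95 to 0.74 for Mylk, -1.04 to 0.12 for Csn2, -0.30 to 0.19 for Klf2, -0.15 to 0.15 for Egr2, -0.53 to 0.43 for Klf4, -0.25 to 0.18 for Stat2, -1.16 to 0.95 for Plin4, -0.038 to 0.060 for Tbp and -0.019 to 0.29 for Pdcd2. Over all alternatives the Notch list median (-0.0029) ran from -0.0040 to 0.042 and the glycolysis list median (-0.029) from -0.11 to 0.0049. Of these genes, Mylk passed without either mCherry mouse and Csn2 passed as lower without mCherry mouse 1 (adjusted p = 0.00771).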
